A study of Homo sapiens with 9 samples.

Results

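The genes described were 9 genes of the MHC class I pathway: the regulator NLRC5, the heavy chains HLA-B, HLA-C, HLA-E and HLA-F, the light chain B2M, the peptide transporter subunits TAP1 and TAP2, and the loading factor TAPBP. They were chosen by name, for their place in the pathway, and were found by matching the gene identifiers of the count tables to GENCODE symbols. The tables list 58395 identifiers, and all 9 genes were among the 16761 that passed the filter on low counts and were tested. The data were RNA-Seq counts of MDA-MB-231, a human triple-negative breast cancer cell line, 96 h after reverse transfection of siRNA into cells grown in DMEM with serum. One group received a nontargeting control siRNA (siNC), another the first ZIP7 siRNA (siZIP7_1) and the last the second ZIP7 siRNA (siZIP7_2), with 3 libraries per group and 9 in all. ZIP7 is the zinc transporter encoded by SLC39A7. The comparison asks how the transcriptome of these cells responds to loss of ZIP7, and a pair of siRNAs of different sequence allows a response to be read with each of them. The authors describe transfection in 3 replicates per siRNA, without saying whether these came from independent experiments. The p-values therefore measure the spread between these libraries, which may be technical. All libraries come from 1 cell line, and from RNA of whole cultures in which fewer cells of a type and less RNA per cell cannot be told apart.

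MHC class I molecules display peptides from inside the cell to CD8 T cells and to natural killer cells. Proteins are cut by the proteasome, the peptides are pumped into the endoplasmic reticulum by the TAP1 and TAP2 transporter, and tapasin, the product of TAPBP, holds the empty heavy chain and its light chain B2M beside the transporter until a peptide binds. NLRC5 does not bind DNA by itself. It is recruited to class I promoters by the RFX, CREB/ATF and NF-Y factors, which sit together on a stretch called the SXY module, and it raises transcription there. Interferon signalling, in part through IRF1, raises NLRC5 and class I genes in most cell types.

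The promoters of HLA-B, HLA-C and B2M are printed because these are the class I genes on which NLRC5 is known to act, and because the 3 genes moved in one direction. The sequences are RefSeq's for GRCh38.p14, read 5′ to 3′ on the strand of the gene, and begin 250 bases before the RefSeq start site. They end before the first base that the annotation gives as exonic. The HLA-B stretch of 241 bases is from 31357189 to 31357429 on chromosome 6, minus strand, the HLA-C stretch of 212 bases is from 31272131 to 31272342 on chromosome 6, minus strand, and the B2M stretch of 220 bases is from 44711267 to 44711486 on chromosome 15, plus strand. Capitals mark 4 short motifs, searched on both strands: GGGGATT, part of the NF-kB type site of enhancer A, AANNGAAA, a core of interferon response elements, TGACG, the core of CREB/ATF sites, and CCAAT, the core of NF-Y sites. Lower case marks all other bases.
HLA-B: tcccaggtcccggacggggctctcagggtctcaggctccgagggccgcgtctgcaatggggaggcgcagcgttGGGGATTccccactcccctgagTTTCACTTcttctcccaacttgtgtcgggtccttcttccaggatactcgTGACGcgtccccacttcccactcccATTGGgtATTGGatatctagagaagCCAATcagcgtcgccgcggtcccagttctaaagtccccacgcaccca
HLA-C: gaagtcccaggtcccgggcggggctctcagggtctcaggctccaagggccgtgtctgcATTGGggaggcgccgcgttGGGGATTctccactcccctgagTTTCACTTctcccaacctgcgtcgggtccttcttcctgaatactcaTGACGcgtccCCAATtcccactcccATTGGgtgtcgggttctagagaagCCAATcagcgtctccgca
B2M: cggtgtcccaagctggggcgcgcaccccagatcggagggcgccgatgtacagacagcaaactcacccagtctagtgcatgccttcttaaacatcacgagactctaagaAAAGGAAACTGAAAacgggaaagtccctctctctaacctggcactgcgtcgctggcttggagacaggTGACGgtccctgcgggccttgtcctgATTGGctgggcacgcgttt

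All 4 motifs were present in the windows of HLA-B and HLA-C, and their windows were identical at 89% of aligned positions. In HLA-B, GGGGATT began 177 bases before the start site, AANNGAAA 155, TGACG 106 and the CCAAT motifs 81, 74 and 56. In HLA-C, GGGGATT began at 173 bases, AANNGAAA at 151, TGACG at 105 and CCAAT at 95, 80 and 56, with a further CCAAT at 192, upstream of the others. B2M held AANNGAAA at 142 and 136 bases, where the matches share 2 bases and form 1 run of capitals, TGACG at 75 and CCAAT at 49, and held no GGGGATT. The B2M window was identical to that of HLA-B at 47.3% of aligned positions, and in all 3 windows AANNGAAA came before TGACG, which came before the CCAAT nearest the start site. Of 35116 RefSeq promoter windows of this length, 3.19% held GGGGATT, 20.3% AANNGAAA, 21.2% TGACG and 32% CCAAT. A promoter was found for 7 of the 9 genes, and NLRC5 and HLA-E had no entry. Among the others, HLA-F held AANNGAAA and CCAAT, TAP1 held the same pair at its upstream start site, TAP2 held AANNGAAA and TGACG, and TAPBP held GGGGATT and AANNGAAA. A match describes the letters and does not show that a factor binds there. The motifs were chosen from textbook knowledge after these sequences had been read.

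The libraries held between 24153785 and 30454419 reads on genes. The targeted gene SLC39A7 was at 329 ± 12.5 CPM with siNC, 35.6 ± 2.83 with siZIP7_1 and 19.2 ± 1.45 with siZIP7_2 (SD, n = 3 each), which left 10.8% and 5.84% of the control level. CPM here is the count of a gene scaled to a common library size after TMM normalization, which sets library sizes by the bulk of genes. The line's markers VIM, CD44, CAV1 and AXL were well expressed, while ESR1 and PGR were at or near 0, with at most 15 and 2 counts in a library. The first 4 were not stable, with a summed level of 8457 to 9045 CPM with siNC, 5163 to 5496 with siZIP7_1 and 5802 to 5986 with siZIP7_2. At an edgeR adjusted p under 0.05, all 4 were lower with siZIP7_1, and 3 were lower and 1 higher with siZIP7_2. Of all genes tested, 35.9% and 39.3% were lower. CDH1, an epithelial cadherin expected to be low in this line, rose from 0.466 ± 0.125 CPM with siNC to 4.18 ± 0.29 with siZIP7_1 and 0.998 ± 0.254 with siZIP7_2 (log2 fold changes 3.14 and 1.07, edgeR adjusted p = 1.57e-13 and 0.00143), and its part in the class I values was not tested. ESR1, on only 2 to 15 counts, was also called higher with siZIP7_1 and siZIP7_2 (log2 fold changes 1.38 and 2.43, edgeR adjusted p = 0.0272 and 3.59e-05). Among 7 markers of immune and endothelial cells, which carry much class I, MS4A1 had 0 counts in every library, CD3E had at most 1, and PTPRC had 7 to 28. Their summed level was 5.67 to 6.93 CPM with siNC, 1.44 to 1.71 with siZIP7_1 and 17.7 to 21.5 with siZIP7_2, the last mostly from CD14 and PECAM1, and the part of these genes in the class I values was not tested. Reads on no annotated gene were 7.43% to 8.28% of listed reads with siNC, 7.8% to 9.62% with siZIP7_1 and 9.99% to 11.5% with siZIP7_2, and their part was likewise not tested.

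With siZIP7_1, 8 of the 9 genes fell, and TAP1 did not pass the threshold. Of all 16761 genes tested, 35.9% were lower in this comparison and 70.7% changed in either direction, at a Benjamini-Hochberg adjusted p under 0.05 in the quasi-likelihood test of edgeR. With siZIP7_2, 8 of the 9 also fell, and HLA-E did not pass, where 39.3% of all genes were lower and 77.8% changed in either direction. The 7 genes lower with both siRNAs were NLRC5, HLA-B, HLA-C, HLA-F, B2M, TAP2 and TAPBP, and 20.8% of all genes were lower with both. The median log2 fold change of the 9 genes was -0.94 with siZIP7_1 and -0.67 with siZIP7_2, where that of all genes tested was -0.01 and -0.00. The 3 libraries of siZIP7_1 all lay below the 3 of siNC in 9 of the 9 genes, which was so for 36.5% of all genes tested, and those of siZIP7_2 in 8 of the 9, against 39.9% (38.9% of all genes had theirs above). The comparisons share the siNC libraries, so a control value that is high by chance enters both.

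**Figure D1:**
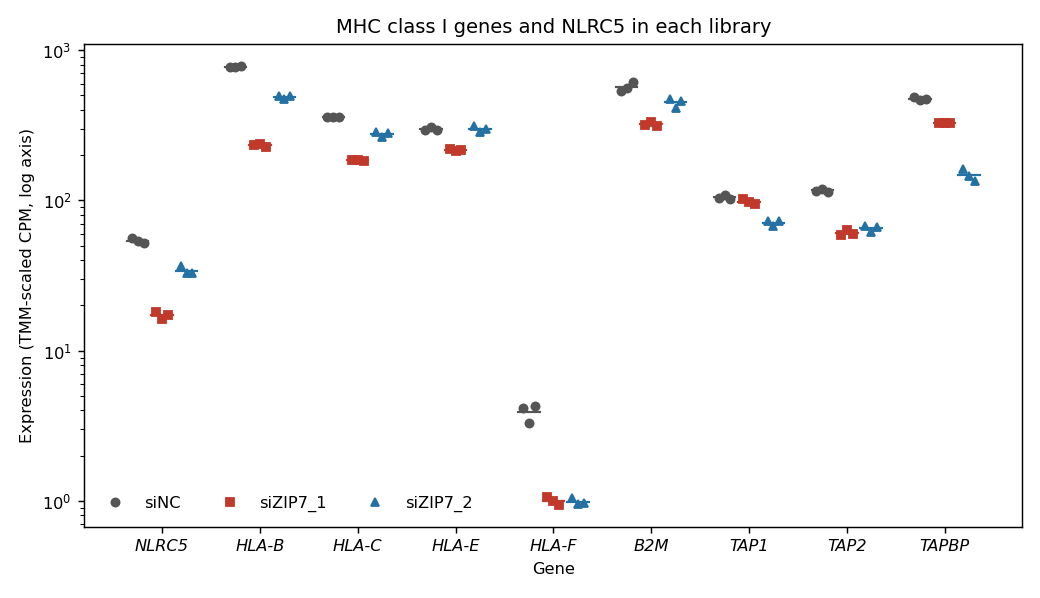
Expression of the 9 genes in each of the 9 libraries, as TMM-scaled CPM on a log axis, with 1 point per library, a horizontal line at each group mean and the groups siNC, siZIP7_1 and siZIP7_2 set side by side. NLRC5, HLA-B, HLA-C and B2M are lowest with siZIP7_1, TAPBP and TAP1 are lowest with siZIP7_2, and HLA-F sits near 1 CPM with either ZIP7 siRNA.

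NLRC5 (ENSG00000140853), the class I transactivator, is on the plus strand of chromosome 16, from base 56989485 to base 57083531 of GRCh38, apart from the other genes. Its 3 siNC libraries read 56.2, 54.1 and 51.8 CPM, those of siZIP7_1 read 18, 16.3 and 17.4, and those of siZIP7_2 read 36.4, 33 and 32.8. The groups were fully separate, with siZIP7_2 between the control and siZIP7_1. The level left was 31.9% of control with siZIP7_1 and 63% with siZIP7_2. The log2 fold change was -1.65 ± 0.063 (SE) with siZIP7_1 (edgeR adjusted p = 1.44e-19) and -0.67 ± 0.059 with siZIP7_2 (edgeR adjusted p = 2.93e-11). The siRNAs themselves differed, with siZIP7_2 higher by 0.98 ± 0.065 on the log2 scale (edgeR adjusted p = 3.57e-14), while SLC39A7 was the lower with siZIP7_2.

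HLA-B (ENSG00000234745), a classical heavy chain that presents peptides to CD8 T cells, followed the same order. Its siNC libraries read 770, 779 and 786 CPM, its siZIP7_1 libraries 233, 238 and 228, and its siZIP7_2 libraries 497, 474 and 498. No group overlapped another, and 29.9% and 62.9% of the control level were left, close to the shares of NLRC5. The log2 fold change was -1.74 ± 0.046 with siZIP7_1 (edgeR adjusted p = 2.52e-23) and -0.67 ± 0.045 with siZIP7_2 (edgeR adjusted p = 5.01e-14), and the siRNAs differed by 1.07 ± 0.045 (edgeR adjusted p = 9.37e-19). HLA-B lies on chromosome 6 from 31269491 to 31357188 on the minus strand, and this model runs over HLA-C, with which it shares 35 exonic bases. The heavy chain genes are close copies of each other, so reads could be assigned to the wrong one or be missing from the counts. Reads listed as having more than 1 alignment were 0 in all 9 libraries. Whether such reads were absent or had been removed before counting is not stated, so this 0 does not settle the assignment.

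HLA-C (ENSG00000204525), the other classical heavy chain and a main ligand of killer cell receptors, changed less. Its libraries read 358, 357 and 361 CPM with siNC, 186, 187 and 182 with siZIP7_1, and 284, 263 and 281 with siZIP7_2. The groups were again separate and in the order of HLA-B. On the log2 scale the change was -0.96 ± 0.045 with siZIP7_1 (edgeR adjusted p = 2.39e-17) and -0.38 ± 0.045 with siZIP7_2 (edgeR adjusted p = 1.07e-08). HLA-C lies from 31268749 to 31272130 on chromosome 6, minus strand. The ratio of HLA-B to HLA-C in CPM was 2.17 ± 0.0165 with siNC, 1.26 ± 0.0122 with siZIP7_1 and 1.78 ± 0.0298 with siZIP7_2 (SD, n = 3 each), so the pair did not fall in proportion.

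HLA-E (ENSG00000204592), which presents leader peptides of other class I chains to the NKG2A receptor, fell with siZIP7_1 alone. Its libraries read 293, 306 and 294 CPM with siNC, 220, 213 and 218 with siZIP7_1, and 314, 285 and 301 with siZIP7_2. The siZIP7_2 libraries overlapped the control range, while each siZIP7_1 library lay below it. The log2 fold change was -0.46 ± 0.046 with siZIP7_1 (edgeR adjusted p = 7.09e-10) and 0.01 ± 0.046 with siZIP7_2 (edgeR adjusted p = 0.827), with a 95% interval of -0.08 to 0.11 in the latter, and the sign of that value changed with no filter on low counts and with single libraries left out. The difference between the siRNAs was 0.47 ± 0.046 (edgeR adjusted p = 2.99e-10). The gene lies from 30489467 to 30494205 on the plus strand of chromosome 6. Beside the larger fall of HLA-B, the ratio of HLA-E to HLA-B in CPM went from 0.382 ± 0.00956 with siNC to 0.932 ± 0.0314 with siZIP7_1 and 0.613 ± 0.0173 with siZIP7_2.

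HLA-F (ENSG00000204642), a nonclassical heavy chain, was the weakest of the 9 in expression and fell by similar values with each siRNA. Its libraries read 4.18, 3.31 and 4.27 CPM with siNC, 1.06, 0.996 and 0.941 with siZIP7_1, and 1.05, 0.954 and 0.961 with siZIP7_2. All 6 siZIP7 libraries lay near 1 CPM, below every control, and those of the siRNAs overlapped. HLA-F changed on the log2 scale by -1.98 ± 0.18 with siZIP7_1 (edgeR adjusted p = 3.95e-11) and -1.99 ± 0.18 with siZIP7_2 (edgeR adjusted p = 4.01e-11). The difference of the siRNAs was -0.01 (edgeR adjusted p = 0.959), with a wide 95% interval of -0.48 to 0.45 that goes with the 25 to 120 counts behind each value. HLA-F lies from 29722775 to 29738528 on chromosome 6, plus strand, and 28.5% of its exonic length is shared with genes on the other strand, whose reads cannot be told apart if strand was not counted.

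B2M (ENSG00000166710), the light chain that pairs with class I heavy chains, lies on chromosome 15 from 44711487 to 44718877 on the plus strand. Its libraries read 536, 562 and 613 CPM with siNC, 316, 331 and 315 with siZIP7_1, and 474, 415 and 459 with siZIP7_2. The control and siZIP7_2 libraries were more scattered than those of siZIP7_1, and still no group overlapped another. On the log2 scale B2M changed by -0.83 ± 0.054 with siZIP7_1 (edgeR adjusted p = 3.44e-14) and -0.34 ± 0.053 with siZIP7_2 (edgeR adjusted p = 1.28e-06), and siZIP7_2 was the higher by 0.49 ± 0.054 (edgeR adjusted p = 2.54e-09). The summed CPM of the 4 heavy chains over that of B2M was 2.53 ± 0.153 with siNC, 1.98 ± 0.047 with siZIP7_1 and 2.38 ± 0.0802 with siZIP7_2. The siNC and siZIP7_2 ratios overlapped, from 2.36 to 2.66 and from 2.31 to 2.47, and those of siZIP7_1 lay below both.

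The transporter subunits parted from each other. TAP2 (ENSG00000204267) read 116, 120 and 114 CPM with siNC, 59.3, 64 and 59.4 with siZIP7_1, and 67.1, 62 and 66.9 with siZIP7_2, so that the ZIP7 siRNAs overlapped well under the control. TAP1 (ENSG00000168394) read 104, 109 and 102 CPM with siNC, 102, 97.8 and 94 with siZIP7_1, and 73, 67.6 and 72.7 with siZIP7_2. For TAP1, the siZIP7_1 libraries ended just under the lowest control and the siZIP7_2 libraries were well below. TAP2 changed by -0.94 ± 0.05 on the log2 scale with siZIP7_1 (edgeR adjusted p = 3.88e-16) and -0.84 ± 0.05 with siZIP7_2 (edgeR adjusted p = 4.38e-15). TAP1 changed by -0.10 ± 0.049 with siZIP7_1 (edgeR adjusted p = 0.0676), with a 95% interval of -0.20 to -0.00, and this comparison passed the threshold when siZIP7_1 replicate 1 was left out (log2 fold change -0.13, edgeR adjusted p = 0.0477). With siZIP7_2, TAP1 fell by 0.56 on the log2 scale (edgeR adjusted p = 3.11e-11). The ratio of TAP1 to TAP2 was 0.9 ± 0.00682 with siNC, 1.61 ± 0.0993 with siZIP7_1 and 1.09 ± 0.00152 with siZIP7_2. TAP1 lies from 32845209 to 32853978 and TAP2 from 32821833 to 32838780 on the minus strand of chromosome 6, 6428 bases apart, and a gene on the same strand shares 32.3% of TAP2's exonic length.

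TAPBP (ENSG00000231925), whose product tapasin bridges the heavy chain to the transporter, fell with both siRNAs, and more with siZIP7_2. Its libraries read 488, 463 and 474 CPM with siNC, 326, 327 and 329 with siZIP7_1, and 163, 146 and 134 with siZIP7_2. The order of the ZIP7 siRNAs was thus the reverse of that of NLRC5 and HLA-B, with no overlap between groups. The log2 fold change was -0.54 ± 0.053 with siZIP7_1 (edgeR adjusted p = 3.03e-10) and -1.68 ± 0.055 with siZIP7_2 (edgeR adjusted p = 3.06e-21), and the difference between the siRNAs was -1.15 ± 0.054 (edgeR adjusted p = 1.35e-17). TAPBP lies from 33299694 to 33314387 on chromosome 6, minus strand, 95254 bases from SLC39A7, the gene targeted here.

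**Figure D2:**
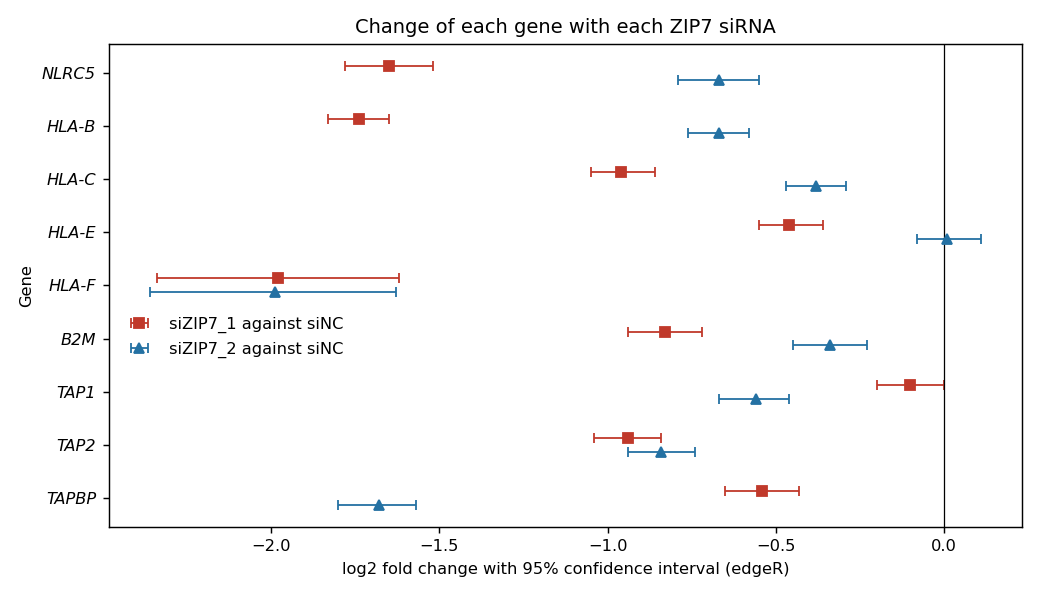
The log2 fold change of each of the 9 genes with siZIP7_1 (squares) and siZIP7_2 (triangles) against siNC, with 95% confidence intervals from the edgeR fit of 3 libraries per group. NLRC5, HLA-B, HLA-C, HLA-E and B2M lie farther from 0 with siZIP7_1, TAP1 and TAPBP lie farther with siZIP7_2, and the intervals of HLA-F and TAP2 overlap.

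In the test between the ZIP7 siRNAs, the members did not share one direction. The regulator NLRC5, the heavy chains HLA-B, HLA-C and HLA-E, and B2M were higher with siZIP7_2 than with siZIP7_1, 5 of the 9 genes, against 38.1% of all genes tested. TAP1 and TAPBP were lower with siZIP7_2, 2 of the 9, against 40.6%. HLA-F and TAP2 were not called, with TAP2 at 0.10 ± 0.051 (edgeR adjusted p = 0.0731), and TAP2 was called without siZIP7_1 replicate 2, at 0.13, and without siZIP7_2 replicate 2, at 0.14. The libraries did not overlap for the same 5 genes above, against 38.5% of all genes, and the same 2 below, against 41.2%. The median of the 9 differences was 0.47, and that of all genes -0.02. In either direction 7 of the 9 were called and 78.7% of all genes tested, so a difference between the siRNAs does not set the members apart from other genes.

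At the 1.8-fold filter, read per library against the siNC mean on log2(CPM + 1) and asking for at least 4 of the 6 siZIP7 libraries, HLA-F passed as lower in 6 libraries and TAP2 in 4. NLRC5, HLA-B, HLA-C and TAPBP passed in 3 libraries each, B2M in 1, and HLA-E and TAP1 in 0. None of the 9 passed as higher. Of all genes tested, 2.88% passed as lower and 2.8% as higher. TAP2 did not pass when siNC replicate 2 was left out of the mean, and HLA-F then remained as the 1 gene past the filter.

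Per length of the annotated exons, HLA-B had the highest control level of the 9, at 255 ± 2.61 RPKM (counts scaled by library size and exonic length, SD, n = 3), followed by HLA-C at 143 ± 0.676 and HLA-E at 100 ± 2.41. TAPBP at 94 ± 2.43 and B2M at 93.8 ± 6.38 did not differ beyond their spread, and HLA-E lay within the spread of B2M. TAP1 at 21.9 ± 0.704, TAP2 at 18.3 ± 0.449, NLRC5 at 4.36 ± 0.178 and HLA-F at 0.902 ± 0.122 came below. With siZIP7_1, HLA-B was at 76.4 ± 1.55 RPKM, HLA-C at 73.7 ± 0.858, HLA-E at 73 ± 1.17 and HLA-F at 0.23 ± 0.0132, and on this length HLA-C and HLA-E did not differ beyond their spread. With siZIP7_2, HLA-B was at 160 ± 4.34 RPKM, HLA-C at 110 ± 4.64, HLA-E at 101 ± 4.86 and HLA-F at 0.227 ± 0.012. These lengths are the union over all annotated transcripts, and the order depends on them. Per length of the longest principal transcript, B2M was second with siNC, at 334 ± 22.7 CPM per kilobase, behind HLA-B at 503 ± 5.16, and TAP2 at 46.8 ± 1.15 was above TAP1 at 35.5 ± 1.14. On that length HLA-B, HLA-C and HLA-E stayed apart with siZIP7_1, at 151 ± 3.06, 120 ± 1.4 and 83.4 ± 1.33 CPM per kilobase.

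By likeness of pattern over the 9 libraries, HLA-B was the 4th nearest gene to NLRC5 of 13735 compared, and LAMTOR1, USP5, PHF19 and MRPS18B were the others of the nearest 5. The measure was the root mean squared difference of log2(CPM + 0.5), centred on siNC, which was 0.0941 for HLA-B and 0.0703 for LAMTOR1, the nearest. Of the other members, TAP2 stood at rank 462 with a difference of 0.417, HLA-C at 479, B2M at 753, HLA-F at 895, HLA-E at 2895, TAPBP at 3953 and TAP1 at 4183. The genes nearest to the mean of the 9 members were GPAA1, OGG1, MCM5, RRP8 and MRPS7, with differences of 0.0457 to 0.0676. Both lists are descriptions over libraries that form 3 groups.

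The other genes of the pathway were counted in 6 lists, to be read against all genes tested, of which 35.9% were lower and 34.8% higher with siZIP7_1, 39.3% and 38.5% with siZIP7_2, and 20.8% and 17.7% with both, at medians of -0.01 and -0.00. No list was tested as a whole.

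Of 10 tested genes of peptide supply, 7 (70%) were lower and 3 (30%) higher with siZIP7_1, and 7 and 3 again with siZIP7_2, with 6 lower and 2 higher with both, and their median log2 fold changes were -0.37 and -0.72. PSMB9, a catalytic subunit of the immunoproteasome, fell from 30 ± 0.521 CPM to 9.03 ± 0.283 and 5.27 ± 0.271 (log2 fold changes -1.73 and -2.50). PSMB8, another catalytic subunit, whose gene lies 505 bases from TAP1, changed by -0.31 and -0.95. PSMB10, the remaining immunoproteasome catalytic subunit, changed by -1.45 and -0.82, ERAP1, which trims peptides in the endoplasmic reticulum, by -1.18 and -0.72, and PSME1, a proteasome activator subunit, by -0.49 and -1.17. Between the siRNAs, PSMB8, PSMB9 and PSME1 were lower with siZIP7_2 than with siZIP7_1, with log2 differences of -0.64, -0.77 and -0.68 (edgeR adjusted p = 2.01e-12, 7.94e-09 and 8.80e-14), while PSMB10 and ERAP1 were higher, by 0.63 and 0.46 (edgeR adjusted p = 3.30e-06 and 3.81e-09).

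Of 8 tested genes that fold and load class I chains, 3 (37.5%) were lower and 5 (62.5%) higher with siZIP7_1, 5 (62.5%) lower and 1 (12.5%) higher with siZIP7_2, and 3 lower and 1 higher with both, at medians of 0.14 and -0.33 (all genes 35.9% and 34.8%, then 39.3% and 38.5%). GANAB, a glucosidase that trims glycans of new chains, changed by -0.96 and -0.61, UGGT1, which checks folding, by -0.74 and -0.36, and TAPBPL, a relative of tapasin, by -0.70 and -1.21. HSPA5, the main chaperone of the endoplasmic reticulum, rose by 0.54 and 1.12.

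Among 12 tested class I-like genes of 15 listed, 9 (75%) were lower and 1 (8.33%) higher with siZIP7_1, and 7 (58.3%) were lower and 3 (25%) higher with siZIP7_2, with 5 lower and 1 higher with both. Their medians were -0.68 and -0.46, where 35.9% and 39.3% of all genes were lower. HFE, an iron regulator that pairs with B2M, changed by -1.30 and -1.93, HLA-G, a nonclassical heavy chain, by -1.40 and -0.76, and the pseudogenes HLA-J and HLA-H by -1.22 and -0.81 and by -1.27 and -0.54. The HLA pseudogenes are near copies of the heavy chain genes, so the assignment of their reads is uncertain. MICA, a stress ligand of the NKG2D receptor that binds neither B2M nor peptide, rose by 0.26 and 0.77.

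The factors that meet on the SXY module moved less evenly. Of 9 tested genes, 7 (77.8%) were lower and 2 (22.2%) higher with siZIP7_1, 5 (55.6%) lower and 2 (22.2%) higher with siZIP7_2, and 3 (33.3%) were lower with both, against 35.9%, 39.3% and 20.8% of all genes lower. Their medians were -0.45 and -0.23. CIITA, the relative of NLRC5 that acts on MHC class II genes, read 35.9 ± 0.519 CPM with siNC, 3.28 ± 0.478 with siZIP7_1 and 17.9 ± 1.1 with siZIP7_2, a log2 fold change of -3.45 with siZIP7_1, in the same order of groups as NLRC5. RFX5, a subunit of the RFX complex, changed by -0.61 and -1.19, and CREB1 by -0.24 and -0.39.

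Interferon and NF-kB signalling genes did not share one direction. Of 15 tested, 7 (46.7%) were lower and 6 (40%) higher with siZIP7_1, while 1 (6.67%) was lower and 12 (80%) were higher with siZIP7_2, with 1 lower and 6 (40%) higher with both. Of all genes, 34.8%, 38.5% and 17.7% were higher, and the medians of the list were 0.03 and 0.50. IRF1, a factor that drives NLRC5 and class I promoters, was at 69.4 ± 0.353 CPM with siNC, 31 ± 1.04 with siZIP7_1 and 64.4 ± 1.91 with siZIP7_2, log2 fold changes of -1.16 and -0.11 (edgeR adjusted p = 5.71e-18 and 0.0488). STAT2, a signal carrier of interferon receptors, rose by 1.58 and 0.40, its partner IRF9 by 0.69 and 1.06, IRF2 by 0.71 and 0.50, and IFNGR1, a chain of the interferon gamma receptor, by 0.53 and 0.55.

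A further list of 8 tested genes held those that repress class I transcription or remove class I molecules, and SPPL3, which acts on class I detection. Of these, 2 (25%) were lower and 5 (62.5%) higher with siZIP7_1, and 3 (37.5%) lower and 4 (50%) higher with siZIP7_2. Of all genes, 34.8% and 38.5% were higher, and the medians of the list were 0.59 and 0.01. SUSD6 and TMEM127, known to act together in sending class I molecules to lysosomes, rose by 1.21 and 0.88 and by 0.82 and 0.88. SPPL3, a protease that affects class I detection by way of surface glycolipids, rose by 0.84 and 0.65. It is counted among the higher genes of this list, though it does not repress or remove class I. EZH2 and EED, subunits of the Polycomb complex that can silence class I genes, changed by -0.66 and -0.77 and by -0.45 and -0.59.

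**Figure D3:**
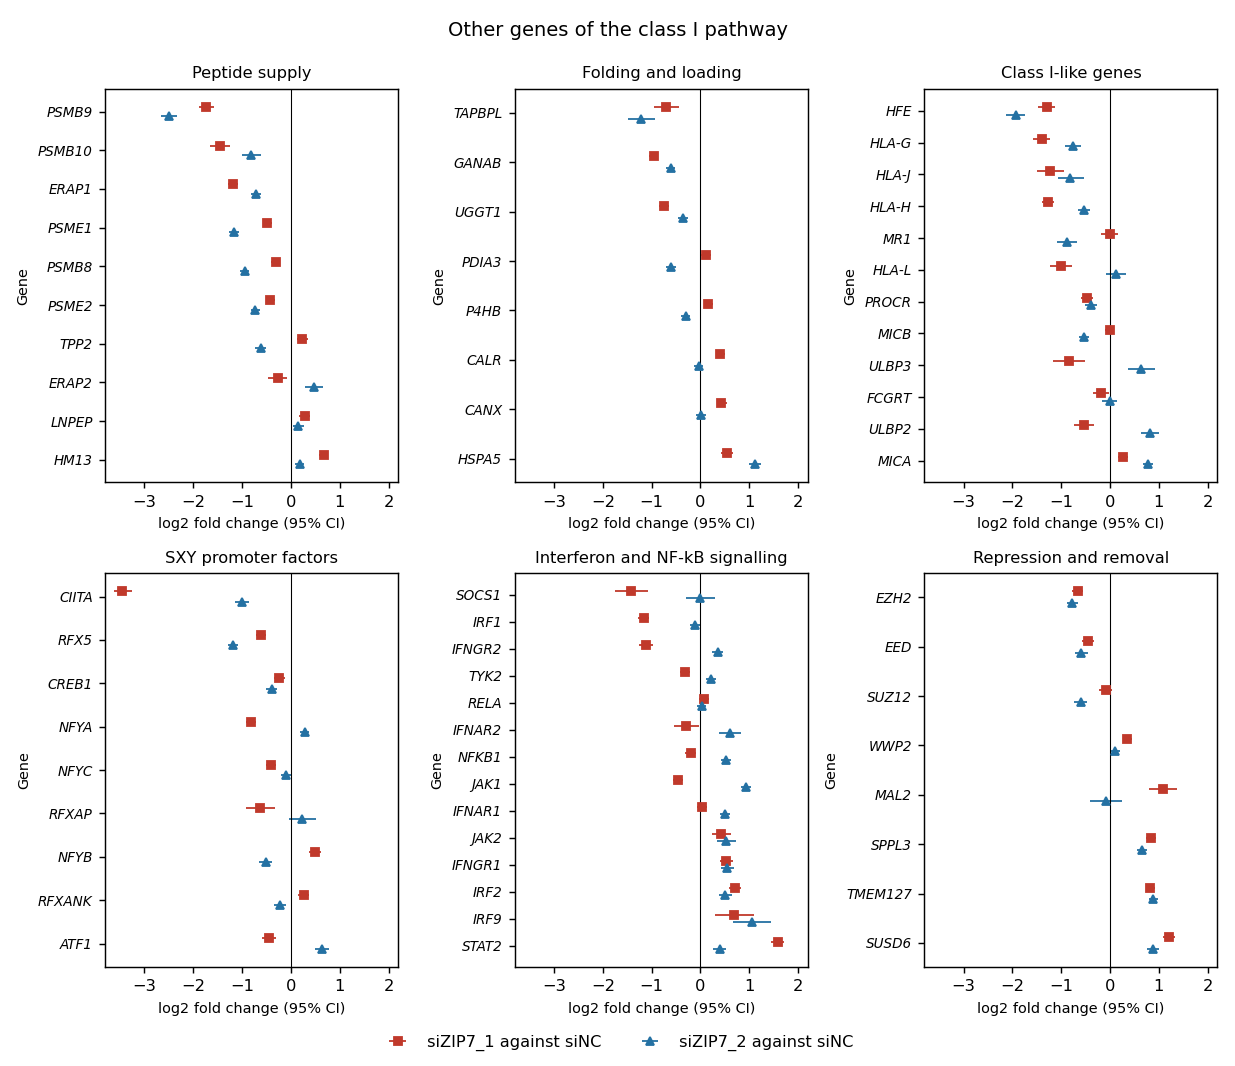
The log2 fold changes with 95% confidence intervals of the tested genes, all but 1, of 6 lists from the class I pathway, with siZIP7_1 (squares) and siZIP7_2 (triangles) against siNC, sorted within each list by the mean of both. PSMB9 and CIITA lie farthest below 0, most interferon and NF-kB genes lie above 0 with siZIP7_2, and SUSD6 and TMEM127 lie above 0 with each siRNA.

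Of the 9 members, 7 lie on chromosome 6 between HLA-F and TAPBP, a span that also holds SLC39A7 and the MHC class II genes. Of its 103 other tested protein-coding genes, 56 were lower and 20 higher with siZIP7_1, that is 54.4% and 19.4%, and 57 were lower and 29 higher with siZIP7_2, or 55.3% and 28.2%. With both siRNAs, 38 (36.9%) were lower and 13 (12.6%) higher. Of all genes tested, 35.9% were lower and 34.8% higher with siZIP7_1, 39.3% and 38.5% with siZIP7_2, and 20.8% and 17.7% with both. The median log2 fold change of these genes was -0.18 with siZIP7_1 and -0.36 with siZIP7_2. NLRC5 and B2M lie on other chromosomes and were lower with both siRNAs, and the part of position in the values of the 7 was not tested.

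**Figure D4:**
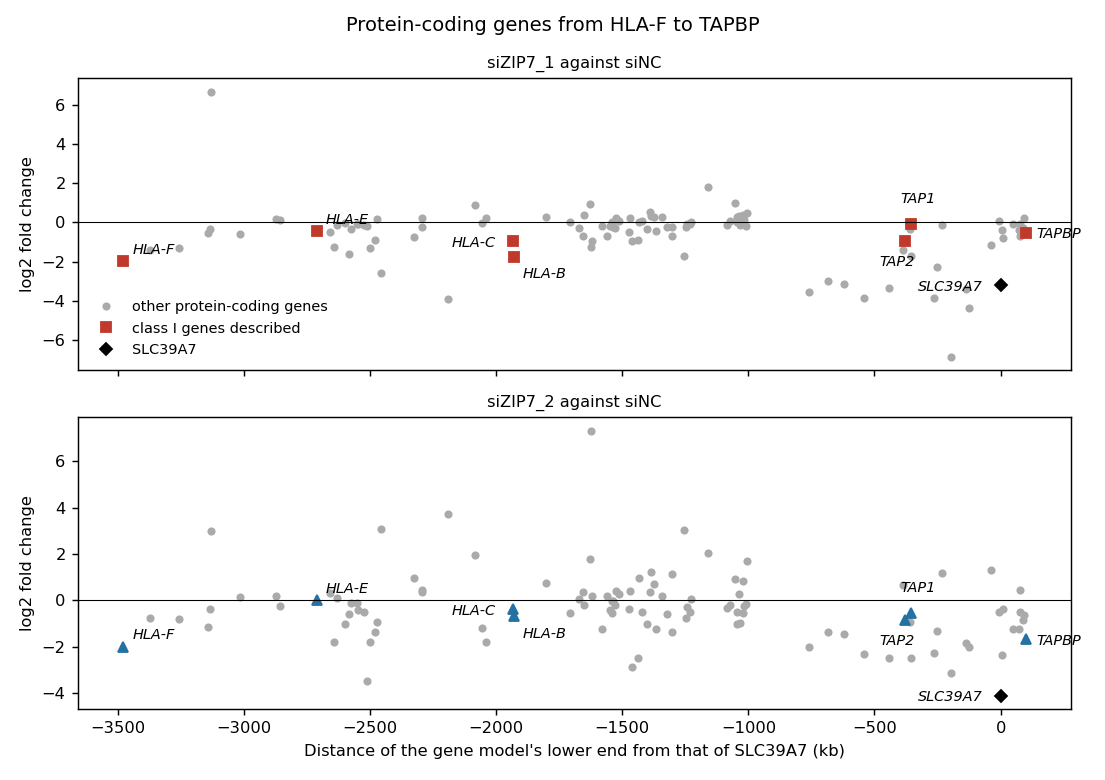
The log2 fold change of tested protein-coding genes from HLA-F to TAPBP with siZIP7_1 (upper panel) and siZIP7_2 (lower panel) against siNC, plotted by the distance of the gene model's lower end from that of SLC39A7 in kb, with the class I genes as colored symbols, SLC39A7 as a diamond and all others in grey. The grey genes scatter on both sides of 0, the MHC class II genes among them lie mostly below 0 on the left of SLC39A7, and TAPBP is the described gene nearest to SLC39A7.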

How the data were processed

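Total RNA was extracted 96 h after transfection, and single reads were sequenced. The submitters' processing notes name Trim Galore 0.4.1, FastQC 0.11.2, STAR, HTSeq 0.6.1 and DESeq2 1.16.1, with no role or order. The genome build, annotation and strand setting are not given in the sources used here. The authors deposited raw read counts per gene for each library, and the rows for reads on no gene or on several genes were left out of library sizes (7.43% to 11.5% and 2.66% to 2.91% of listed reads).

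Identifiers were matched to GENCODE 29 (58275 of 58395), whose GRCh38 coordinates are printed. The counts went into edgeR 4.0.16 under R 4.3.3: TMM scaling, its filter on low counts over the groups, and its quasi-likelihood test over all 9 libraries in 1 fit, with Benjamini-Hochberg adjustment over 16761 genes and a threshold of 0.05. The scripts were tested on simulated data. The biological coefficient of variation was 4.5%. Libraries of a group differed by more than sampling noise, so none was counted as a repeat (chi-squared per gene at least 2.5). Alternatives were DESeq2 1.42.0, other scalings and filters, a replicate block, a 1.8-fold null, fits of 2 groups, and each library left out. Promoters came from RefSeq.

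The members, lists and tests were chosen with earlier results of these data known. Named were SLC39A7, the 9 members, up to 4 genes per list with the largest mean change among those past the threshold in one direction with both siRNAs and at a mean of at least 1 CPM, CIITA, IRF1, PSMB8 and PSMB9 whatever their values, and the 5 nearest genes by pattern. Values of 1 further gene of this rule and 1 marker are not reported here.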

Additional observations from a re-analysis of the deposited data

How the results depend on the processing

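Of 459 values of the 9 genes, from 17 alternatives, 426 kept their direction and their side of the threshold. The 14 that lost a call did so under the null of a change of at most 1.8-fold (edgeR's glmTreat), which left 4 members with siZIP7_1, 2 with siZIP7_2 and 3 between the siRNAs, and 2836, 4134 and 4725 of all genes. HLA-E with siZIP7_2 against siNC turned from 0.01 to -0.04 with no filter on low counts, and to -0.01 without siNC replicate 1 or siZIP7_2 replicate 1 (range with 1 library left out -0.01 to 0.05), and was called at 0.12 under upper-quartile scaling (edgeR adjusted p = 0.0197, with 0.0197 to 1 over the alternatives). HLA-F between the siRNAs turned from -0.01 to 0.01 with DESeq2, 0.02 with DESeq2 size factors, 0.07 under upper-quartile scaling, 0.04 with at least 10 counts in every library, 0.01 with only 2 groups, and lay between -0.07 and 0.02 with 1 library left out. TAP2 between the siRNAs was called under 6 alternatives, at 0.12 to 0.18, and TAP1 with siZIP7_1 without siZIP7_1 replicate 1. The cause of these changes was not tested. Upper-quartile scaling moved the median of all genes with siZIP7_2 against siNC by 0.11.

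The 1.8-fold filter held 2 members, and 1 when all 6 libraries were asked for, 1 without TMM and 1 without siNC replicate 2. Same-numbered libraries of different groups did not deviate together (correlations of -0.0919 to 0.118), so the replicate numbers were not taken as pairs. With a replicate block the members called were 8, 8 and 7 as before, and 11927, 13080 and 13242 of all genes were called. HLA-F, with 25 to 120 counts per library, is the member that depth limits most.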
